A study of Mus musculus with 15 samples.

Results

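The metastases of a melanoma growing in mouse lung were divided by the RNA level of a lung gene, taken as a marker of normal lung. The 2 classes were then compared across the transcriptome. Sftpc, which encodes surfactant protein C and is made by the alveolar type 2 cells of the lung, set the classes. A library with at least 150 CPM (counts scaled to the library total) of Sftpc was called lung-rich, and one below 150 CPM lung-poor. All 15 libraries of the series fell into a class, 8 as lung-rich and 7 as lung-poor. The classes are not groups of the study: they were defined from a measured level, so that level and the genes of the same cells are described below without a test; those genes enter the totals of genes called.

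The tumour line was B16-F10.1, a pigmented melanoma line of C57BL/6 origin that lodges in the lung after intravenous injection. Male C57BL/6J mice aged 8 weeks had received 100000 cells by tail vein, and after 21 days were put on a test diet for 2 weeks. All mice thus carried the same line and differed in the methionine of their food. By samples, the adequate diet was given to 3, the restricted diet (25% of normal) to 3, the deficient diet (0%) to 3 and the supplemented diet (300%), which is named in the sample labels alone, to 6 samples. The labels do not say whether the libraries came from separate mice, so p-values measure only the spread between these libraries, and no batch or date is given.

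A lung metastasis is dissected from an organ lined by flat alveolar type 1 cells, which exchange gas across a mesh of capillaries, and by alveolar type 2 cells, which secrete surfactant. Club and ciliated cells line the airways, and alveolar macrophages patrol the air spaces. Melanoma cells are recognised by the enzymes of melanin synthesis, which are driven by the transcription factor MITF. In bulk RNA, fewer cells of a type and less RNA per cell cannot be told apart.

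Both classes occurred in each of the 4 diets. Sftpc is given here as CPM of the whole library. In the adequate group it stood at 177, 282 and 42.3 CPM, in the restricted group at 85.6, 2.22 and 193 CPM, and in the deficient group at 301, 36.6 and 2331 CPM. The supplemented libraries held 123, 114, 363, 449, 0.215 and 654 CPM, replicates being numbered in the order given. Supplemented replicate 5, with 3 Sftpc counts, was the lowest library and deficient replicate 3 the highest. The class medians were 332 CPM (lung-rich) and 42.3 CPM (lung-poor). Adequate replicate 1 lay just above the threshold at 177 CPM and supplemented replicate 1 just below it at 123 CPM. Lung-rich libraries numbered 2 of 3 in the adequate, 3 of 6 in the supplemented, 1 of 3 in the restricted and 2 of 3 in the deficient group.

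**Figure D1:**
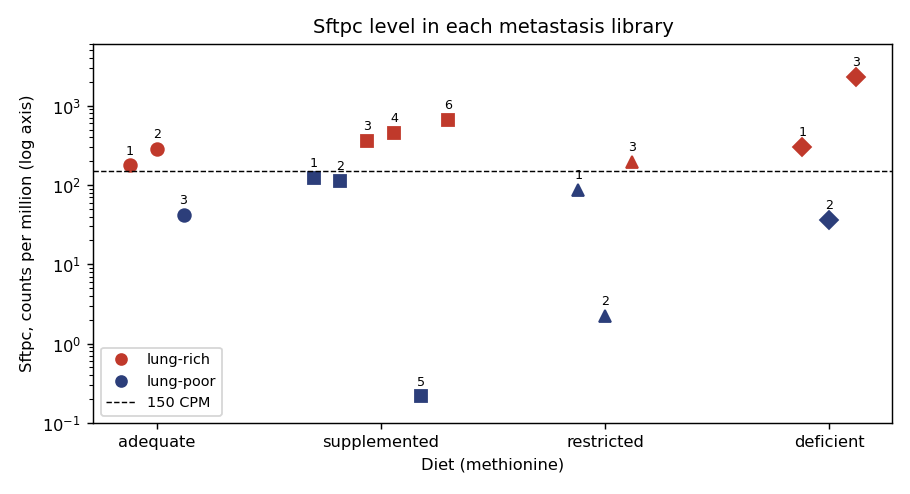
Sftpc CPM (log axis) in each library, by diet, with the replicate number beside each point and the 150 CPM threshold dashed. Every diet holds libraries on both sides, and supplemented replicate 5 (0.215 CPM) and deficient replicate 3 (2331 CPM) lie at the ends.

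Depth was similar in the classes, with 13977220 to 22836208 total counts in lung-poor and 13107679 to 29994264 in lung-rich libraries. Lung-rich libraries had 16860 to 18945 genes with a count, lung-poor ones 15108 to 17805. Small structural RNAs, together with a pair of unnamed gene IDs that hold identical counts, took 18.4% to 44.5% of the counts in lung-rich and 13.97% to 23.6% in lung-poor libraries, the highest share being that of adequate replicate 1. With both left out of the total, supplemented replicate 1 had 157 CPM and would have been lung-rich, while no other library changed class. Whether this share has a part in the results below was not tested. Values of single genes below are CPM scaled by TMM, a library scaling factor, and put Sftpc at 181 to 2159 CPM in lung-rich libraries.

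The comparison of the classes, with diet as a covariate, found no gene that passed correction for multiple tests. Of 16000 genes tested, 0 (0%) passed an adjusted p of 0.05 in edgeR's quasi-likelihood test, and the smallest adjusted p was 0.133. Without adjustment, 1308 genes (8.18%) had a p below 0.05 with a higher level in lung-rich libraries and 846 (5.29%) with a lower one. limma-voom also called 0 genes, whereas DESeq2 called 460 higher (2.89%) and 84 lower (0.528%) of 15916. Over all genes the median log2 fold change was -0.003, and 7937 (49.6%) were above 0. In 50 genes (0.312%) every lung-rich library lay above every lung-poor library, and in 23 (0.144%) below.

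Cutting a continuous level into 2 classes puts 0.215 and 123 CPM into the same class, so Sftpc was also entered as a continuous term (log2 CPM) in the same model, an alternative to the class. There 948 genes (5.92%) rose and 341 (2.13%) fell with Sftpc, and a slope is the change in log2 CPM for each doubling of Sftpc. These counts rest heavily on the libraries at the ends. Without supplemented replicate 5, 673 genes rose (4.21%) and 44 fell (0.275%), and 469 of the 673 and 11 of the 44 were among those called with all libraries. Without deficient replicate 3, 536 rose and 171 fell; without both libraries, 224 rose (1.36%) and 1 fell (0.00606%), 183 of the 224 being among those called with all libraries. Leaving out deficient replicate 2 gave 585 rising and 150 falling, supplemented replicate 4 gave 695 and 142, and supplemented replicate 6 gave 666 and 185. Without adequate replicate 1 the counts were larger, with 1418 rising and 627 falling. Counts of list members below are to be read beside the shares of all genes given here and for the classes.

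Alveolar type 2 genes, which share a cell of origin with Sftpc, are given as a description. Of 21 measured members besides Sftpc, 20 had a log2 fold change above 0, with a median of 2.05. Sftpb, encoding surfactant protein B, ran from 0.496 to 96.6 CPM (median 25.9) in lung-poor and from 59.2 to 892 CPM (median 151) in lung-rich libraries. Slc34a2, the phosphate transporter of these cells, had medians of 31.5 and 215 CPM. Lyz2, encoding lysozyme M and also made by macrophages, ran from 63.2 to 179 CPM and from 224 to 1782 CPM, so that its classes did not overlap. Lamp3, Napsa and Cxcl15 were likewise separate, with log2 fold changes of 2.60, 2.05 and 2.74. Cxcl15 was picked after its values were seen, by a rule that took genes with separate classes. Abca3, which pumps lipid into lamellar bodies, differed less, at 0.69 ± 0.322 (SE) on the log2 scale, and Scd1, a fatty acid desaturase, by 1.24 ± 0.361. Etv5 was the member below 0, at -0.45. The mean log2 CPM of the list was between 0.56 and 4.34 in lung-poor and between 4.49 and 7.41 in lung-rich libraries, the only one of 31 lists whose classes did not overlap.

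Alveolar type 2 identity in the lung depends on NKX2-1 and on forkhead factors, and promoters of the list were searched for the core letters of both on either strand, in the 250 bases before the RefSeq start. The RefSeq table held 19 promoters for 17 genes of the list, and none for Sftpc. The forkhead core TGTTTAC was in 3 of 19 promoters (15.8%), those of Etv5, Il33 and Lamp3, against 1040 of 32851 promoters in the RefSeq table (3.17%). The NK2 core TCAAGTG was in 1 of 19 (5.26%) against 881 of 32851 (2.68%). In the 100 bases before the start the forkhead core was in 1 of 19 (5.26%) against 367 of 32851 (1.12%), and the NK2 core in 0 of 19 against 282 (0.858%). The promoters of Lamp3 and Etv5, the former separating the classes and the latter not, are shown 5′ to 3′ with the forkhead core, or its reverse complement, in capitals. They lie at chr16:19706401-19706507 and chr16:22439697-22439803 in GRCm38.p6, both on the minus strand.
Lamp3: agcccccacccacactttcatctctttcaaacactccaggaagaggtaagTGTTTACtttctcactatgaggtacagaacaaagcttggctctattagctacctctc
Etv5: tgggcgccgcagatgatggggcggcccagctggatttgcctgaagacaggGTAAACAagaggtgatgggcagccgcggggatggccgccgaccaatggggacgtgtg
The same letters were thus present upstream of a member that was higher in lung-rich libraries and of one that was not; a match of letters shows no binding.

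Alveolar type 1 genes had fold changes of much the same size as the surfactant genes. All 20 measured members had a log2 fold change above 0, with a median of 2.03; 17 had an unadjusted p below 0.05, and 16 rose with Sftpc, at a median slope of 0.519. With supplemented replicate 5 and deficient replicate 3 left out, 13 rose, all 13 among the 16, and the median log2 fold change was 1.46. Ager, the receptor RAGE of the type 1 cell membrane, was at 1.55, 6.20, 35.5, 37.8, 54.7, 69.5 and 71.6 CPM in lung-poor libraries and between 70.1 and 892 CPM (median 158) in lung-rich ones. Its classes met at restricted replicate 3, at 70.1 CPM, and supplemented replicate 2, at 71.6 CPM. Between classes Ager differed by 2.14 ± 0.706 on the log2 scale (± SE; adjusted p = 0.231), and its slope of 0.65 passed (adjusted p = 1.3e-08; 6.8e-06 without both end libraries). Igfbp2 and Emp2, the members with the smallest p, differed by 1.93 ± 0.446 and 2.10 ± 0.552 on the log2 scale, each with an adjusted p of 0.190. The water channel gene Aqp5 and the homeobox gene Hopx were picked after their values were seen, and their classes did not overlap. Aqp5 reached 7.24 CPM at most in lung-poor libraries and was at least 7.89 CPM in lung-rich ones.

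Airway genes varied over a range similar to that of alveolar genes. Of 17 members tested, 16 were above 0 (median log2 fold change 2.24), 12 had an unadjusted p below 0.05 and 12 rose with Sftpc, or 8 without both end libraries. Scgb1a1, the secretoglobin of club cells, was at 0.186, 1.63, 1.92, 4.32, 8.18, 66.7 and 165 CPM in lung-poor libraries. In lung-rich libraries it ran from 37.7 to 3587 CPM, with a median of 137 CPM. Restricted replicate 1 (165 CPM) and supplemented replicate 2 (66.7 CPM) stood above some of the lung-rich libraries, such as adequate replicate 2 at 37.7 CPM. The slope of Scgb1a1 was 1.27 (adjusted p = 0.000406; 0.021 without both end libraries). Cbr2, a carbonyl reductase of club cells, separated the classes, at 5.58 to 21.1 CPM and 26.4 to 812 CPM, and differed by 2.68 ± 0.684 on the log2 scale (adjusted p = 0.190).

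Among mesothelial genes, markers of the lung's outer lining, 8 of 9 were above 0 (median 1.56). On the higher side 1 had an unadjusted p below 0.05, against 8.18% of all genes. With Sftpc 3 rose, against 5.92% of all genes, or 1 without both end libraries. Krt19, a keratin also made by airway cells, ran from 0.992 to 7.28 CPM in lung-poor and from 7.8 to 52.6 CPM in lung-rich libraries. Msln, encoding mesothelin, overlapped, with medians of 2.11 and 15.2 CPM.

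**Figure D2:**
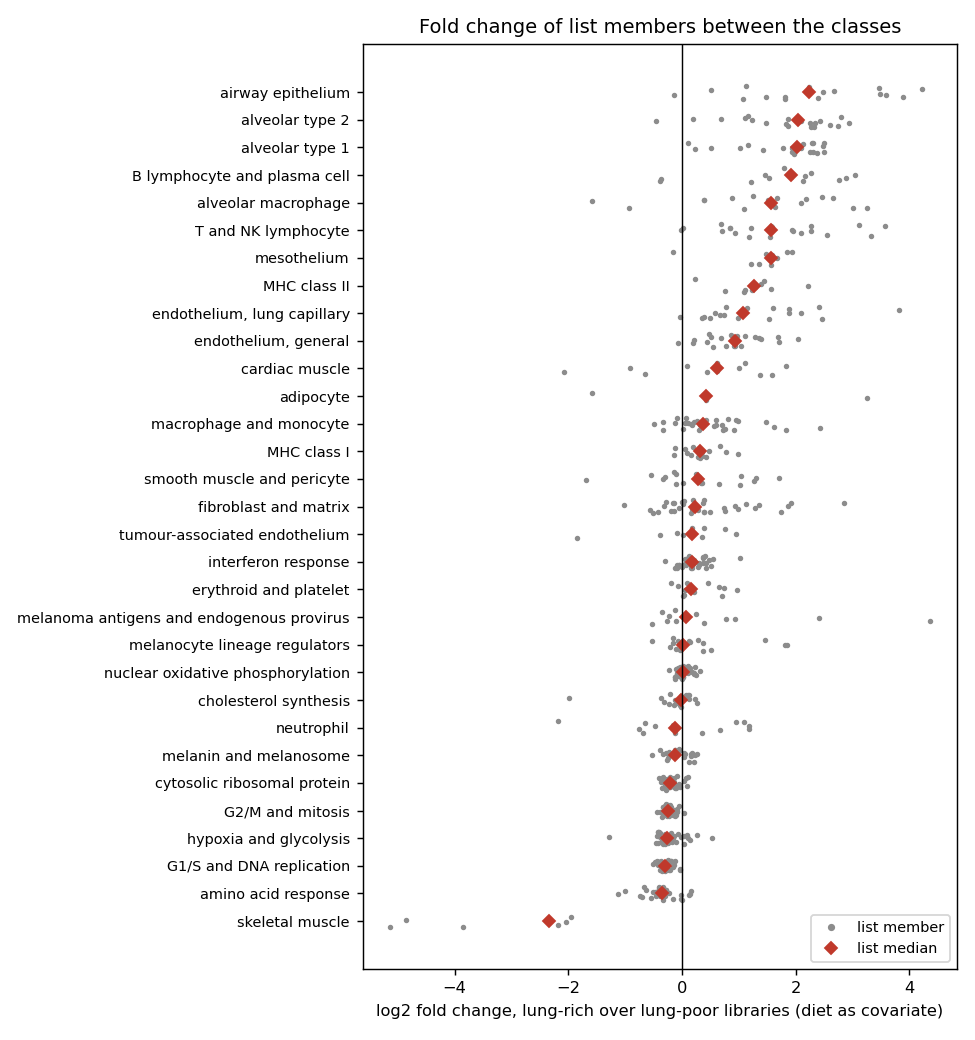
Log2 fold change of lung-rich over lung-poor libraries with diet as covariate (horizontal axis) for the tested members of 31 gene lists (grey points), with the list median as a red diamond. Airway, alveolar, lymphocyte and MHC class II lists have medians above 1, cell cycle lists lie slightly below 0, and the skeletal muscle list lies lowest at -2.33.

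Endothelial genes were grouped by the vessel they mark. The general list (Pecam1, Cdh5 and others) had 23 of 24 members above 0, a median of 0.93, and 14 members that rose with Sftpc, or 3 without both end libraries. Of lung capillary genes 17 of 18 were above 0 with a median of 1.07, and 12 rose with Sftpc, or 3 without both end libraries. Of tumour-associated endothelial genes, such as Plvap and Angpt2, 1 rose with Sftpc, against 5.92% of all genes. The 10 tumour-associated genes had a median of 0.18, with 7 above 0. Their mean log2 CPM was lower in the lung-rich libraries by 0.22, 1.05 and 0.12 in the adequate, restricted and deficient groups and higher by 0.83 in the supplemented group, without overlap in any of the 4. In the adequate, restricted and deficient groups a class held 1 library, so a lack of overlap there says little. Without supplemented replicate 5 the median of the list was -0.063, and without supplemented replicate 3 it was -0.016. Plvap and Aplnr are members of both the lung capillary and the tumour-associated list. Emp2 of the capillary list is also in the alveolar type 1 list, and Car4 in the alveolar macrophage list. The difference between the endothelial lists was not tested. Cdh5, the cadherin of endothelial junctions, was at 21.7 to 78.3 CPM in lung-poor and 26.0 to 475 CPM in lung-rich libraries, the latter value in deficient replicate 3. It differed by 1.11 ± 0.436 on the log2 scale (adjusted p = 0.300), and its slope of 0.23 passed (adjusted p = 0.020) but not without both end libraries (0.62). Car4, a carbonic anhydrase on alveolar capillaries, had medians of 0.318 and 2.39 CPM. Kitl, the ligand of KIT, had medians of 8.81 and 19.9 CPM and differed by 1.61 ± 0.310 on the log2 scale (adjusted p = 0.160). It passed with deficient replicate 1 left out (adjusted p = 0.0309), with deficient replicate 3 left out (0.0207) and with both end libraries left out (0.0241). With any other single library left out Kitl did not pass.

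Stromal genes had medians closer to 0. Of 34 fibroblast and matrix genes, 22 were above 0 with a median of 0.24; 8 had an unadjusted p below 0.05 on the higher side and 1 on the lower. With Sftpc 6 rose, or 7 without both end libraries (4 of them among the 6) and 12 without supplemented replicate 5 alone (6 of them among the 6), where the median slope was 0.151 rather than 0.035. Col1a1, the chain of type I collagen, ran from 104 to 447 CPM in lung-poor and from 44.9 to 241 CPM in lung-rich libraries (log2 difference -0.28 ± 0.296). Dpt encodes the matrix protein dermatopontin, and Inmt a methyltransferase abundant in lung. Dpt did not overlap, with 0.555 to 2.29 CPM against 2.84 to 28.4 CPM, and differed by 1.91 ± 0.465 on the log2 scale (adjusted p = 0.190). The slope of Inmt was 0.95 (adjusted p = 4.3e-05; 0.00015 without both end libraries). Acta2, the smooth muscle actin, had medians of 44.7 and 34.3 CPM, and smooth muscle and pericyte genes a median log2 fold change of 0.28 with 12 of 19 above 0.

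Most immune lists had medians above 0, the resident macrophage among them. Alveolar macrophage genes had a median log2 fold change of 1.58 with 14 of 16 above 0, and 11 rose with Sftpc, or 3 without both end libraries. Chil3, a chitinase-like protein of alveolar macrophages, had medians of 17.8 and 57.6 CPM, while Marco, a scavenger receptor of the same cells, had medians of 1.78 and 1.08 CPM. Fabp4, a fatty acid carrier shared with the adipocyte list, went the other way, at 3.11 to 20.5 CPM in lung-poor and 1.3 to 4.73 CPM in lung-rich libraries, a log2 difference of -1.58 ± 0.369 (adjusted p = 0.190). The general macrophage and monocyte list had a smaller median, 0.37, with 25 of 30 above 0 and 12 with an unadjusted p below 0.05 on the higher side; 3 rose with Sftpc, or 9 without supplemented replicate 5. Lyz2, also in the alveolar type 2 list, is a member of this list, so these counts are not free of the cells that set the classes. Cd68, a lysosomal marker of all macrophages, had medians of 42.2 and 52.3 CPM.

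Itgax, encoding the integrin CD11c of alveolar macrophages and dendritic cells, had the smallest p of all genes outside the alveolar type 2 list. It was at 4.09, 4.37, 4.59, 6.52, 8.11, 9.63 and 10.9 CPM in lung-poor libraries and at 8.58, 10.8, 18.3, 19.1, 20.5, 20.9, 33.8 and 47.7 CPM in lung-rich ones. The 2 lowest lung-rich values were those of the adequate group, and the remaining 6 lay above every lung-poor library. The log2 difference was 1.61 ± 0.250 (adjusted p = 0.133 in edgeR; 2.3e-06 in DESeq2). The adjusted p in edgeR was 0.0309 without deficient replicate 1, 0.0374 without deficient replicate 3 and 0.0241 without both end libraries. With any other single library left out Itgax did not pass.

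Genes of MHC class II, which displays peptides on antigen-presenting cells, were all 10 above 0, at a median of 1.26; 8 had an unadjusted p below 0.05 and DESeq2 called 7. Their median was almost the same, 1.21, without both end libraries. H2-Aa ran from 12.2 to 45.1 CPM (median 29.9) in lung-poor and from 26.1 to 204 CPM (median 78.7) in lung-rich libraries, a log2 difference of 1.45 ± 0.247 (adjusted p = 0.133 in edgeR; 2.7e-05 in DESeq2). Cd74, the invariant chain, had medians of 85.0 and 232 CPM. The class II genes did not part the classes in the adequate group, where the list's mean log2 CPM was 2.24 and 2.04 in the lung-rich libraries and 2.11 in the lung-poor one. In the supplemented, restricted and deficient groups the lung-rich libraries were higher by 1.66, 1.29 and 1.24 and did not overlap, though in the restricted and deficient groups a class held 1 library. In edgeR's test of a class by diet interaction 0 of 16000 genes passed, and 306 had an unadjusted p below 0.05. That test had 7 residual degrees of freedom. In the adequate, restricted and deficient groups a class held 1 library, so the outcome of the test cannot show that the diets were alike. MHC class I genes, present on nearly all cells, had a median of 0.32, with 14 of 16 above 0. H2-Q4 was the member with the smallest p, at 0.98 ± 0.171 (adjusted p = 0.133). Genes of this family are near-identical copies, whose counts the alignment can split.

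Lymphocyte genes were of low abundance. In the T and NK list 21 of 22 were above 0 (median 1.56) and 8 had an unadjusted p below 0.05; in the B and plasma cell list 11 of 13 (median 1.92) and 7. Nkg7, a granule protein of cytotoxic cells, had medians of 0.602 and 2.13 CPM, and Ighm, the heavy chain of IgM, 3.43 and 9.09 CPM. The defining T and NK markers summed to 0.925 to 2.36 CPM in lung-poor and 0.819 to 14.4 CPM in lung-rich libraries. Neutrophil genes had a median of -0.11 and erythroid and platelet genes of 0.15, and both medians changed sign when single libraries were left out. Interferon response genes had a median of 0.17, with 30 of 36 above 0. On the higher side 6 had an unadjusted p below 0.05, against 8.18% of all genes.

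**Figure D3:**
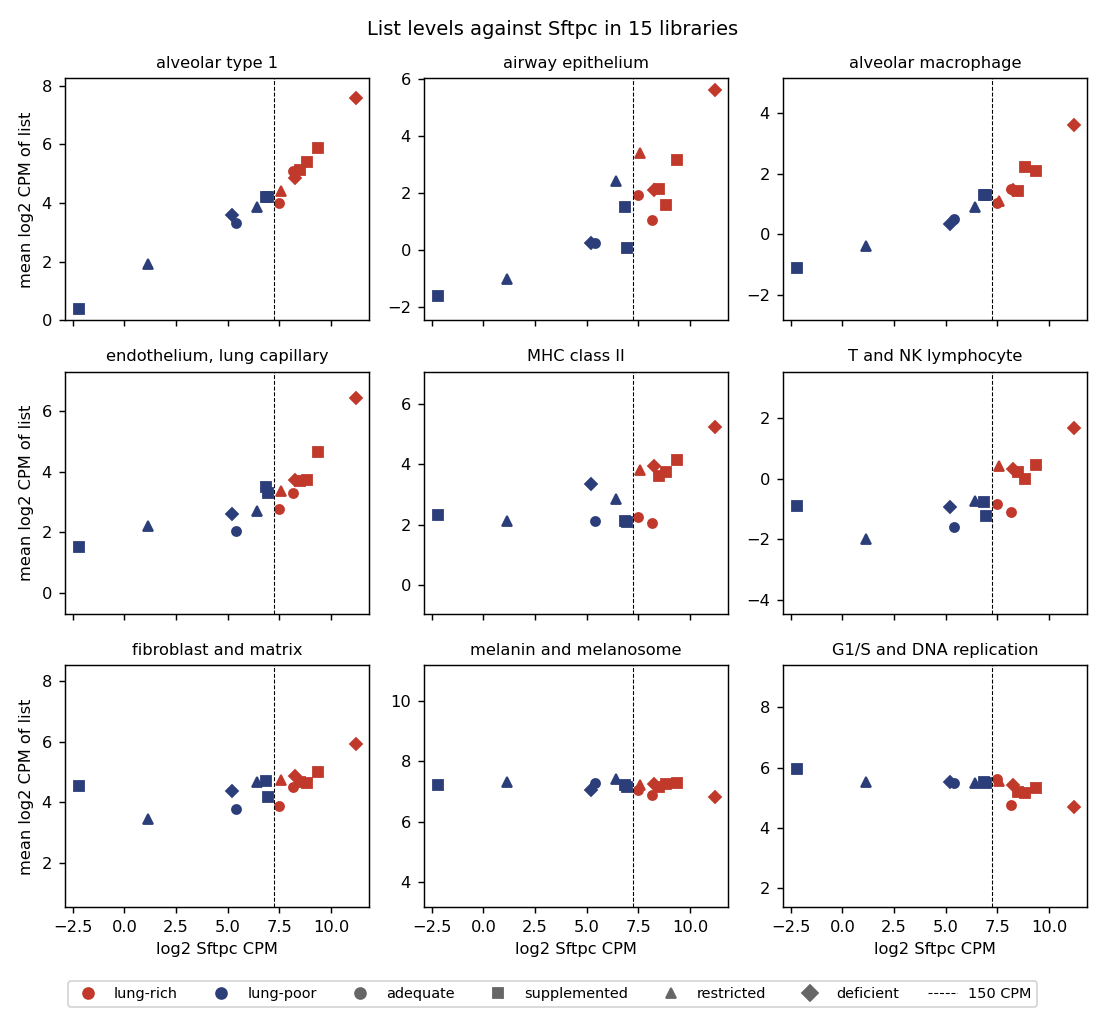
Mean log2 CPM of 9 gene lists (vertical axes, each with its own range) against log2 Sftpc CPM in 15 libraries, coloured by class and shaped by diet, with the 150 CPM threshold dashed. Alveolar type 1 and airway levels climb over the whole range, MHC class II and T and NK levels are higher in most lung-rich libraries, and the melanin list stays between 6.81 and 7.42.

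Melanin genes had fold changes near 0 after TMM scaling, which is relative to the bulk of genes. For the 28 melanin and melanosome genes the median log2 fold change was -0.12, with 10 above 0. Of them, 3 had an unadjusted p below 0.05, all on the lower side, against 5.29% of all genes on that side. With Sftpc 0 rose or fell. Mean log2 CPM of the list was 7.05 to 7.42 in lung-poor and 6.81 to 7.29 in lung-rich libraries. Tyr, tyrosinase, the rate-limiting enzyme of melanin synthesis, ran from 558 to 815 CPM (median 582) and from 362 to 760 CPM (median 589). Dct, dopachrome tautomerase, differed by -0.10 ± 0.154 on the log2 scale, and Pmel, the fibril protein of the melanosome, by -0.22 ± 0.163. Tyrp1, tyrosinase-related protein, had medians of 10815 and 8063 CPM and differed by -0.53 ± 0.155 (adjusted p = 0.196 in edgeR; 0.023 in DESeq2). In the deposited TPM, which are per transcript length, Dct had medians of 1340 (lung-poor) and 1059 (lung-rich) and Sftpc 28.7 and 220, so the melanocyte gene was above the lung gene in both classes. In deficient replicate 3 Sftpc reached 1753 TPM, above the highest Dct value in any lung-rich library, 1441 TPM.

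MITF binds the M-box, and the promoters of the melanin list were searched for its core TCATGTG on either strand in the same window. The table held 27 promoters for 23 genes of the melanin list. The M-box core was in 7 of 27 promoters (25.9%), those of Dct, Hps1, Slc24a5, Slc7a11, Trpm1, Tyr and Tyrp1, against 1068 of 32851 (3.25%). In the 100 bases before the start it was in 5 of 27 (18.5%), against 407 of 32851 (1.24%). None of the 19 alveolar type 2 promoters held it. The upstream sequences of the 3 melanin enzymes are shown 5′ to 3′ with the M-box core, or its reverse complement, in capitals, because their transcripts mark the tumour in both classes. In GRCm38.p6 Tyr lies at chr7:87493513-87493612 (minus strand), Tyrp1 at chr4:80834113-80834212 (plus strand) and Dct at chr14:118052377-118052496 (minus strand).
Tyr: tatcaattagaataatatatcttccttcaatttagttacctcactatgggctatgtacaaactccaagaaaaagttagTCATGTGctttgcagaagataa
Tyrp1: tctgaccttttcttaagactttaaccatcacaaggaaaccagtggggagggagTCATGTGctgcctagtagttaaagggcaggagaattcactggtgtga
Dct: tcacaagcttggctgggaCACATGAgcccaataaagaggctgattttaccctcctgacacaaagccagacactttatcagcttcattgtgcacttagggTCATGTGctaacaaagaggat
Dct holds the core at 2 places, and Tyr and Tyrp1 once each in the stretch shown.

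Lineage regulators had a median of 0.02 with 11 of 19 above 0. Mitf was at 294 to 481 CPM in lung-poor and 325 to 499.5 CPM in lung-rich libraries, and Sox10, a neural crest factor, had medians of 443 and 399 CPM. Cdh1, which encodes E-cadherin and is also made by lung epithelium, departed from this: it differed by 1.82 ± 0.540 on the log2 scale, and it rose with Sftpc at a slope of 0.41 (adjusted p = 0.000569; 0.014 without both end libraries). Among 12 melanoma antigen genes, 5 of which are also in the melanin list, the median was 0.07 with 6 above 0. Of these, 4 had an unadjusted p below 0.05 on the higher side and 2 on the lower, and DESeq2 called 3 higher and 1 lower. The mean log2 CPM of the list was higher in lung-rich libraries of every diet, by 0.36 (adequate), 0.43 (supplemented), 0.38 (restricted) and 0.40 (deficient), without overlap within a diet. In the adequate, restricted and deficient groups a class held 1 library, so a lack of overlap there says little. Single members can move such a mean, and their log2 fold changes ran from -0.53 to 4.37. Over all diets it was 6.25 to 6.69 in lung-poor and 6.68 to 7.12 in lung-rich libraries. S100a6, which encodes a calcium-binding protein made by many cell types, had medians of 15.99 and 28.7 CPM and differed by 0.93 ± 0.236 on the log2 scale (adjusted p = 0.190 in edgeR; 0.0083 in DESeq2). Mia, a secreted melanoma marker, was at 0 to 0.0881 CPM in lung-poor and 0 to 1.39 CPM in lung-rich libraries, near the limit of detection.

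Cell cycle lists lay slightly below 0. None of the 30 G1/S and DNA replication genes was above 0 (median -0.30). Of them, 12 had an unadjusted p below 0.05, against 5.29% of all genes on the lower side. With Sftpc 7 fell, against 2.13% of all genes, or 0 without both end libraries. Mcm4, a subunit of the replicative helicase, ran from 74.7 to 106.98 CPM in lung-poor and from 46.3 to 83.2 CPM in lung-rich libraries (log2 difference -0.39 ± 0.121, adjusted p = 0.211). Of 40 G2/M genes 1 was above 0 (median -0.25), and 9 had an unadjusted p below 0.05, against the same 5.29%. Mki67, the Ki-67 antigen, had medians of 197 and 180 CPM, with its lowest values, 61.4 and 94.7 CPM, in the lung-rich adequate libraries. In the restricted group the G1/S list was higher, not lower, in the lung-rich library, by 0.07. Ribosomal protein genes had a median of -0.21, and nuclear genes of oxidative phosphorylation 0.01.

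Amino acid response genes, targets of ATF4 and amino acid carriers, had a median of -0.35 with 3 of 30 above 0. Of them, 9 had an unadjusted p below 0.05, all lower in lung-rich libraries, against 5.29% of all genes. DESeq2 called 2, but 0 followed Sftpc. Slc3a2, the heavy chain of amino acid exchangers, did not overlap: it was at 282 to 340 CPM in lung-poor and 210 to 270 CPM in lung-rich libraries (log2 difference -0.41 ± 0.0980, adjusted p = 0.190 in edgeR; 0.0026 in DESeq2). Slc7a5, its light chain partner LAT1, had medians of 689 and 389 CPM (log2 difference -0.74 ± 0.177). This list was 0.58 lower in lung-rich libraries of the supplemented group and 0.51 lower in the deficient group, but 0.12 higher in the adequate group. Hypoxia and glycolysis genes had a median of -0.26 with 7 of 35 above 0; the lactate exporter gene Slc16a3 had medians of 28.5 and 17.8 CPM. Cholesterol synthesis genes had a median of -0.02.

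Further genes were picked after their values were seen, for small p, for separate classes, or for slopes that passed and were among the steepest. Their p-values and their separation describe the pick and support nothing further. Ptgs1, cyclooxygenase 1, ran from 2.85 to 10.7 CPM in lung-poor and from 11.4 to 29.8 CPM in lung-rich libraries (log2 difference 1.46 ± 0.280, adjusted p = 0.160). Tyrobp, an adaptor of myeloid receptors, ran from 9.50 to 13.9 CPM and from 15.1 to 50.7 CPM. Wfdc2, a secreted airway protein, and Krt8, a keratin of simple epithelia, also parted the classes, and their slopes were 0.97 (adjusted p = 1e-08) and 0.73 (1.5e-07). On the lower side, Hmga1, a chromatin architectural protein of growing cells, had medians of 475 and 289 CPM (log2 difference -0.70 ± 0.140, adjusted p = 0.160). Fbln5, which encodes the elastic fibre protein fibulin 5, had medians of 184 and 108 CPM (log2 difference -0.80 ± 0.138, adjusted p = 0.133). The splicing factor gene Sf3b3 and the nuclear import gene Kpnb1 were among the 23 genes lower in every lung-rich library, at log2 fold changes of -0.46 and -0.37. Tg, encoding thyroglobulin, was the 1 gene that fell with Sftpc also without both end libraries (slope -0.34, adjusted p = 0.017), with medians of 13.8 and 6.00 CPM.

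**Figure D4:**
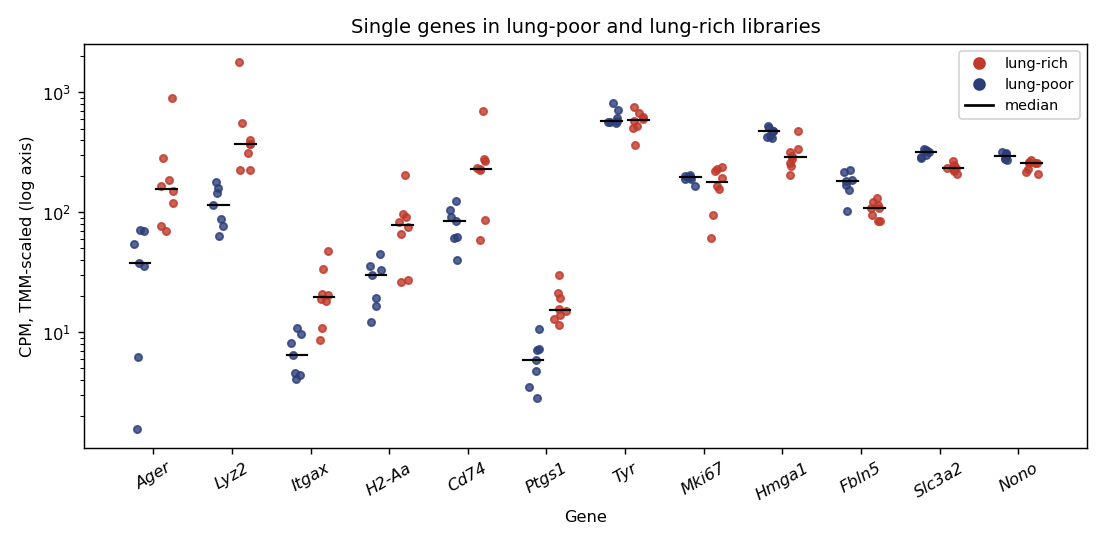
TMM-scaled CPM (log axis) of 12 genes in each lung-poor and lung-rich library, with the class median as a line. Lyz2 and Ptgs1 are higher and Slc3a2 and Nono lower in every lung-rich library, while Tyr and Mki67 overlap.

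Skeletal muscle genes were those with the lowest median, -2.33, over 7 members tested, and a single library set it. Acta1, the skeletal muscle actin, was at 845 CPM in supplemented replicate 5 and at most 3.10 CPM in every other library, and the defining muscle markers summed to 1292 CPM there. This lung-poor library had the lowest Sftpc as well, and 6 of the 7 muscle genes fell with Sftpc, against 0 without it, when the median log2 fold change was 0.75. Cardiac muscle genes, with 2 called falling and 0 without it, had a median of 0.61.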

How the data were processed

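RNA of 15 metastases had been sequenced from total RNA after ribosomal depletion with a stranded kit, per the labels' protocols. The authors deposited expected counts per gene, TPM and FPKM made with Bowtie2 2.2.9 and RSEM 1.30 on build NCBIM37, per the submitters' processing notes; FPKM was not used here. The sources used here give no annotation release, strand setting or read filter, so reads of a gene and an overlapping antisense gene cannot be told apart. Of 37620 IDs, 32897 matched a symbol.

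Expected counts were rounded, filtered with filterByExpr on the diets and scaled by TMM. The main test was the quasi-likelihood test of edgeR 4.0.16 (R 4.3.3) with diet and class, with Benjamini-Hochberg adjustment over 16000 genes, leaving out Sftpc. It had 10 residual degrees of freedom and a biological coefficient of variation of 0.423. Adjusted p-values are from it unless DESeq2 1.42.0 or limma-voom (limma 3.58.1) is named. Each SE was derived as the absolute log2 fold change divided by the square root of the F statistic of edgeR's test. List levels are mean log2 CPM with a prior count of 2. Gene symbols of 31 lists (697 entries, 686 matched) are described by counts and medians. A gene that is in several lists counts in each of them. The members and lists were chosen with earlier results of these data known. Named genes are a set of markers and, since no list had a called member, the 2 members with the smallest p in each list. Others, some of them list members, were picked after their values were seen. The steps were tested on simulated data with the same spread for all genes and no mixture of tissues. Small slopes with Sftpc were mostly missed there. That test does not cover calls that rest on the end libraries. Promoters are from RefSeq, GRCm38.p6.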

Additional observations from a re-analysis of the deposited data

Results flagged for a closer look

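In 7 of 64 groups of libraries examined (a list's mean log2 CPM, or log2 Sftpc CPM, within a class), the highest or lowest library stood apart from its class by a gap that chance gives in about 1 of 20 groups. They came from supplemented replicate 5, deficient replicate 3 and adequate replicate 1. Supplemented replicate 5 was apart among lung-poor libraries in skeletal muscle genes, at 6.46 with the next library at -0.535, and in G1/S and DNA replication genes, at 5.946 with the next at 5.524. Deficient replicate 3 was apart among lung-rich libraries in alveolar type 2 genes (7.413, next 5.849), general endothelial genes (6.719, next 4.926) and alveolar macrophage genes (3.597, next 2.232). Adequate replicate 1 was apart among lung-rich libraries in cytosolic ribosomal protein genes (8.576, next 7.785) and nuclear genes of oxidative phosphorylation (7.051, next 6.402); it also held the highest share of structural RNA and unnamed IDs, 44.5% of counts, whose part in these levels was not tested.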

How the results depend on the processing

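Between the classes edgeR called 0 genes with DESeq2's size factors, with total counts alone, without the diet covariate, without structural RNAs and with the class set without them and the unnamed IDs. It called 544 without a filter on low counts (455 higher, 89 lower), 525 of which were among the 16000 genes of the main test; the cause was not tested. DESeq2 also called 544, and 354 genes were in both sets. Leaving out 1 library gave 0 to 5 calls: 5 without deficient replicate 1 (Kitl, Itgax, H2-Aa, Lyz2, Ighm) and 5 without deficient replicate 3 (Kitl, Itgax, Fgfr2, Tnfsf10, Lyz2). Without supplemented replicate 5 and deficient replicate 3, chosen after the data were seen, 4 were called (Kitl, Itgax, Tnfsf10, Lyz2). Lyz2 belongs to the alveolar type 2 list, on whose cells the classes rest, so its call is counted but supports nothing; Fgfr2 and Tnfsf10 were picked after their values were seen. With Sftpc as a continuous term 1289 genes were called, 707 to 2045 with 1 library left out, 225 without both end libraries and 1748 with 10 added to Sftpc CPM before the log.

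Of 558 list medians under the alternatives, 528 kept their sign and 30 changed it, in 8 lists; all but 2 of the 30 moved by less than the spread between libraries. Besides skeletal muscle these lists had medians within 0.2 of 0: tumour-associated endothelium, neutrophil, erythroid, lineage regulator, melanoma antigen, cholesterol and oxidative phosphorylation genes. The melanoma antigen median ranged from -0.14 to 0.17 with 1 library left out, and that of skeletal muscle from -3.55 to 0.75, the latter without supplemented replicate 5. Of values for single genes, 1814 kept direction and call, 73 gained a call and 9 reversed. With 1 library left out, Acta2 ranged from -0.31 to 0.11, Csrp3 from -2.97 to 0.25 and Mki67 from -0.28 to 0.10. With the class set without structural RNAs and the unnamed IDs, Acta2 was 0.033 and Marco 0.24. Without both end libraries, Atp2a1 was 0.29 and Csrp3 0.11. None of these 5 genes passed the main test between the classes. Without a filter on low counts Atp2a1 was called, at a log2 fold change of -4.86.

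No paired analysis was possible because the replicate numbers follow accession order and the labels pair no libraries. Every diet held both classes, so restricting the fit to such diets changed nothing. Taking structural RNAs alone out of the total changed no class. Genes at a few counts, such as those of lymphocytes, are limited by depth, and shallow slopes with Sftpc can be missed with 15 libraries.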
